A study of Homo sapiens with 6 samples.

Results

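The genes described here are 8 members of the interferon signaling pathway: the kinases JAK1 and TYK2, the transcription factor STAT2, and the interferon regulatory factors IRF1, IRF2, IRF3, IRF7 and IRF9. They were selected by gene symbol, and all 8 were found among the 34036 genes of the count table. RNA was sequenced from HepG2 cells, a human line derived from a hepatocellular carcinoma, to compare cells depleted of DGUOK, the mitochondrial deoxyguanosine kinase, with control cells. Cells received either a pool of siGENOME siRNAs against DGUOK (siDGk) or non-targeting siRNA (siCON) with Lipofectamine RNAiMAX, and were harvested 48 h later as 3 biological replicates of each. No interferon or JAK inhibitor is named in the labels of these 6 samples. Groups were taken from titles and library names, because the treatment label reads as the control siRNA in all 6 samples. Library totals were 19065684, 18915508 and 10527216 counts in siCON replicates 1, 2 and 3, and 18613138, 15978314 and 21334876 in siDGk replicates 1, 2 and 3. Levels are given as CPM, which are counts scaled to library sizes adjusted by TMM normalization.

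The type I interferon receptor signals through the kinases TYK2 and JAK1, which phosphorylate STAT2. STAT2 and IRF9 act in ISGF3, the complex that activates interferon-stimulated genes. IRF3 and IRF7 act upstream, inducing interferon genes after nucleic acid sensing, whereas IRF1 and IRF2 bind related promoter elements as an activator and mainly a repressor; hepatocytes carry this pathway and respond to type I and type III interferons.

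DGUOK (ENSG00000114956.19, GRCh38 chr2:73926826-73958961, plus strand) was measured first as a check of the labels. Values of a group are listed throughout in the order of replicates 1, 2 and 3. The siCON libraries held DGUOK at 54.4, 53.1 and 48.2 CPM and the siDGk libraries at 9.08, 10.5 and 6.72 CPM. Every siDGk library lay below every siCON library, so the DGUOK levels followed the groups named in the titles.

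No call was made for the mRNAs of the 8 genes. After filtering, 7 of the 8 could be tested, and 0 of these 7 were called by edgeR's quasi-likelihood test, where a call needs an adjusted p below 0.05 together with a log2 fold change beyond 0.5 in either direction. Among all 14476 genes tested, 14.1% were called (2041 genes), with 7.42% higher and 6.68% lower after knockdown. By the adjusted p without a size threshold, 0 of the 7 passed, against 19.7% of all genes. At an unadjusted p under 0.05, 2 of the 7 passed (IRF3 and JAK1), against 30.6% of all genes. DESeq2 also called 0 of the 7, with 2 at an unadjusted p under 0.05. Levels in the groups were fully apart for the same 2 genes, against 36.0% of all genes. The median log2 fold change was 0.071 over the 7 genes and 0.017 over all genes tested. None of the 17 alternative settings gave a call among the 8. Of these settings, the stricter log2 fold change threshold of 1 could not have added a call.

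**Figure D1:**
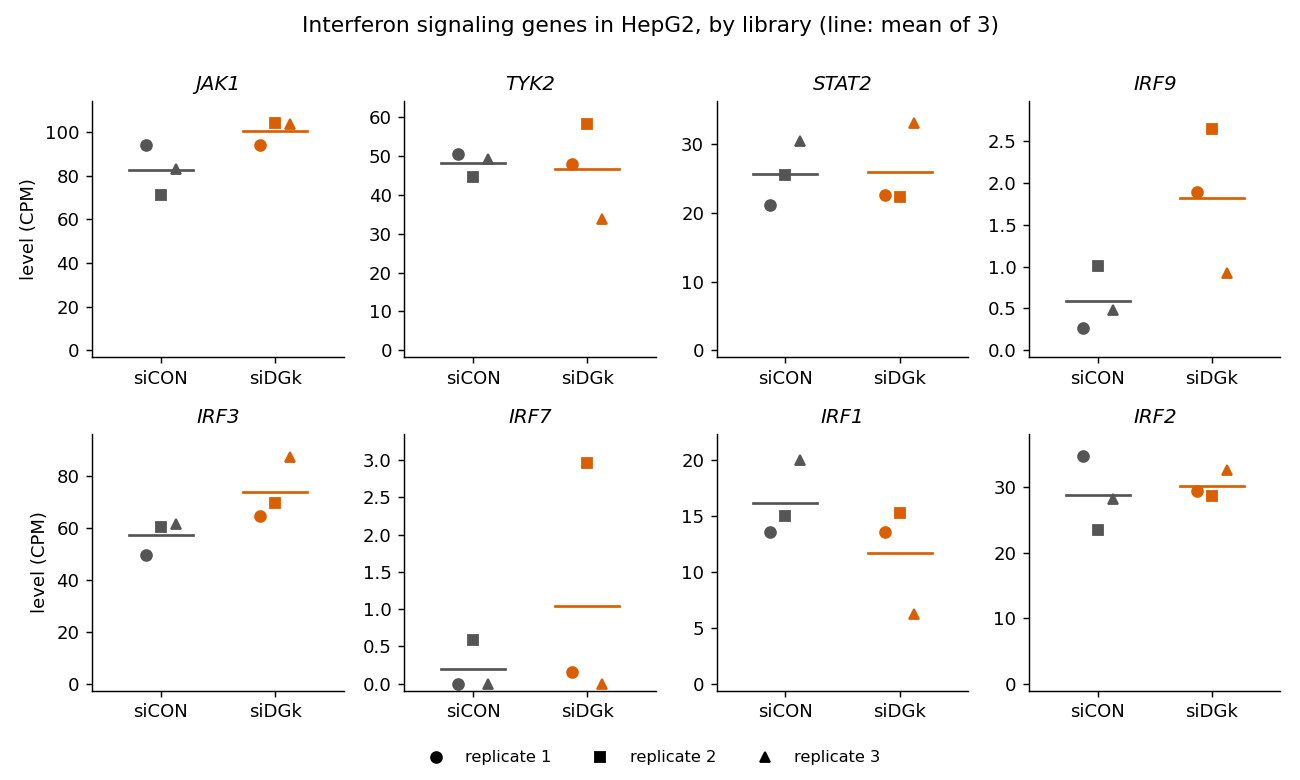
Level of each of the 8 genes in CPM (vertical axes, starting at 0) in the siCON (grey) and siDGk (orange) libraries; points are single libraries, with the shape giving the replicate, and lines are means of 3. The groups lie apart for IRF3 and, by a narrow margin, JAK1, and overlap for the other genes.

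The receptor-associated kinases came first in the pathway. JAK1 (ENSG00000162434.11, chr1:64833223-65067754, minus strand), which serves receptors of all interferon types, was at 93.8, 70.9 and 83.0 CPM in the siCON libraries and at 93.9, 104 and 104 CPM in the siDGk libraries. The groups did not overlap, but siCON replicate 1 and siDGk replicate 1 were nearly equal. The log2 fold change was 0.28 (standard error 0.11, 95% interval 0.044 to 0.53, adjusted p = 0.0944 by edgeR), below the threshold of size. Without siCON replicate 1 the adjusted p was 0.0384 with a log2 fold change of 0.39, and without siCON replicate 2 it was 0.319 with a log2 fold change of 0.18, the lowest and the highest over all alternatives. Of its exonic bases, 647 are shared with LINC01359 on the same strand and 10 with RAVER2 on the opposite strand, itself called lower with all 6 libraries. TYK2 (ENSG00000105397.13, chr19:10350533-10380608, minus strand), the kinase bound to IFNAR1, was at 50.6, 44.5 and 49.3 CPM in the siCON libraries and at 47.8, 58.3 and 33.8 CPM in the siDGk libraries. The siDGk libraries spread to both sides of the siCON libraries, with the highest and the lowest of the 6 values among them. Its log2 fold change was −0.047, with a 95% interval from −0.40 to 0.31, and it turned positive without siDGk replicate 3, at 0.13.

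STAT2 and IRF9 are the ISGF3 subunits among the 8. STAT2 (ENSG00000170581.13, chr12:56341597-56360203, minus strand) was at 21.1, 25.5 and 30.5 CPM in the siCON libraries and at 22.6, 22.2 and 33.0 CPM in the siDGk libraries. The groups overlapped, and replicate 3 was the highest in each. The log2 fold change was 0.022, with a 95% interval from −0.40 to 0.45; it was −0.10 without siCON replicate 1 and −0.20 without siDGk replicate 3.

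IRF9 (ENSG00000213928.8, chr14:24161234-24168043, plus strand), the DNA-binding subunit, had few reads: 5, 19 and 5 counts in siCON replicates 1, 2 and 3, and 35, 43 and 20 counts in siDGk replicates 1, 2 and 3. As levels these were 0.267, 1.01 and 0.477 CPM against 1.89, 2.65 and 0.920 CPM. The siDGk values were mostly the higher ones, but siCON replicate 2 exceeded siDGk replicate 3 in CPM. The log2 fold change was 1.61 with a standard error of 1.11, and its 95% interval, from −0.72 to 3.95, covers both a fall and a large rise (adjusted p = 0.369 by edgeR). DESeq2's shrinkage brought the fold change down to 0.41. In Gencode 44, 27.2% of the exonic bases of IRF9 are shared with other genes, among them a readthrough gene (AL136295.5 in the count table) on the same strand with 9, 23 and 3 counts in siCON and 15, 43 and 14 counts in siDGk replicates 1, 2 and 3. Reads in shared bases are left out by the counting defaults, so the level of IRF9 is uncertain.

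**Figure D2:**
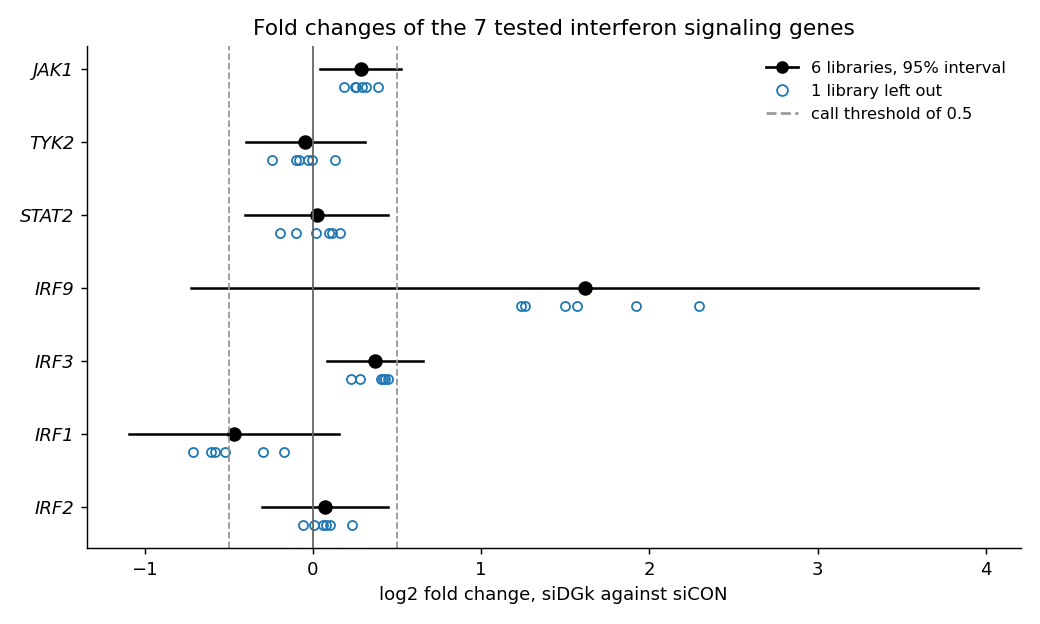
Log2 fold changes (horizontal axis, siDGk against siCON) of the 7 tested genes: black points and bars are the fit of all 6 libraries with its 95% interval, open circles the 6 fits with 1 library left out, and dashed lines the threshold of 0.5 in either direction. The interval of IRF9 runs from −0.72 to 3.95, whereas those of TYK2, STAT2 and IRF2 lie within the dashed lines.

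IRF3 and IRF7 act where sensing meets interferon induction. IRF3 (ENSG00000126456.15, chr19:49659569-49665875, minus strand), which is made constitutively and activated by phosphorylation, was at 49.6, 60.4 and 61.6 CPM in the siCON libraries and at 64.5, 69.7 and 87.3 CPM in the siDGk libraries. All siDGk libraries lay above all siCON libraries, and siDGk replicate 3 was the highest. The log2 fold change was 0.37 (standard error 0.14, 95% interval 0.085 to 0.66, adjusted p = 0.0642 by edgeR). It missed both thresholds, and without siDGk replicate 3 it was 0.22. Its adjusted p passed 0.05 with no count filter (0.0297), with only genes above a mean of 10 CPM (0.0340) and with replicate number as a block (0.0390), each time with a fold change below the threshold; over all alternatives it ran from 0.0297 to 0.322. A share of 19.3% of its exonic bases overlaps BCL2L12 on the opposite strand, itself not called, at a log2 fold change of 0.16.

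IRF7 (ENSG00000185507.19, chr11:612553-615983, minus strand), the interferon-inducible amplifier of the response, had 0, 11 and 0 counts in siCON replicates 1, 2 and 3 and 3, 48 and 0 counts in siDGk replicates 1, 2 and 3. Most of its reads came from siDGk replicate 2, and 3 of the 6 libraries had none. A count of 0 allows up to 0.160, 0.286 and 0.138 CPM in siCON replicates 1 and 3 and siDGk replicate 3, taking 3 counts per library as the limit for counting error. The gene did not pass the filter and no fold change is given for it.

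Counts were also low for IRF4 and for the interferon genes. IRF4, a lymphoid factor of the same family, had 27, 0 and 4 counts in siCON and 94, 174 and 0 counts in siDGk replicates 1, 2 and 3. IFNG had 0 counts in each siCON library and 22, 34 and 0 counts in the siDGk libraries. Of the 22 interferon genes searched for, 3 were listed and 2 had a count; IFNL1 had 8 counts in siCON replicate 1 and 4 in siDGk replicate 1, and IFNA8 had none. The others were not analysed here. None of these ligand genes passed the filter.

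Marker genes were counted beside these values. All 9 hepatocyte markers were detected, and 8 were called lower in siDGk cells (all but SERPINA1); their summed level was 52875, 47121 and 46127 CPM in siCON and 27418, 23922 and 22503 CPM in siDGk replicates 1, 2 and 3. ALB had the highest mean of the 9 over all 6 libraries, but SERPINA1 and TF were above it in each siDGk library. The leukocyte list had 7 of 8 genes listed, 6 tested and 0 called by edgeR (1 at an unadjusted p under 0.05) and by DESeq2 (2 at an unadjusted p under 0.05). Its sum was 1615, 1710 and 1709 CPM in siCON and 1912, 1767 and 1777 CPM in siDGk, almost wholly LYZ. Without LYZ, the sum was 5.61, 14.0 and 9.34 CPM in siCON and 16.0, 21.4 and 13.8 CPM in siDGk. ITGAM had no count in any siDGk library, whereas PTPRC had 9, 55 and 2 counts in siCON and 37, 129 and 58 counts in siDGk. Of the 6 stromal and endothelial markers, 5 were tested, with COL1A1 called higher and PDGFRB lower. That list summed to 13.8, 16.4 and 10.8 CPM in siCON and 35.8, 87.2 and 24.0 CPM in siDGk, and KDR at 0 in siCON. COL1A1 had the highest mean over all 6 libraries, but PDGFRB was the most abundant in each siCON library and VWF in siDGk replicate 2. Without COL1A1, the sum was 13.3, 14.4 and 9.72 CPM in siCON and 15.6, 66.5 and 6.53 CPM in siDGk, so siDGk replicate 3 was then below every siCON library. Of VWF, siDGk replicate 2 held 510 counts, against 26 or fewer in every other library. As with IRF7, IRF9 and IRF4, siDGk replicate 2 was the highest for PTPRC and VWF. Within siCON, replicate 2 was also the highest for IRF7, IRF9, PTPRC and VWF, but not for IRF4. The part of these markers in the levels of IRF7 and IRF9 was not tested. In bulk RNA, fewer cells of a type and less RNA per cell cannot be told apart.

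**Figure D3:**
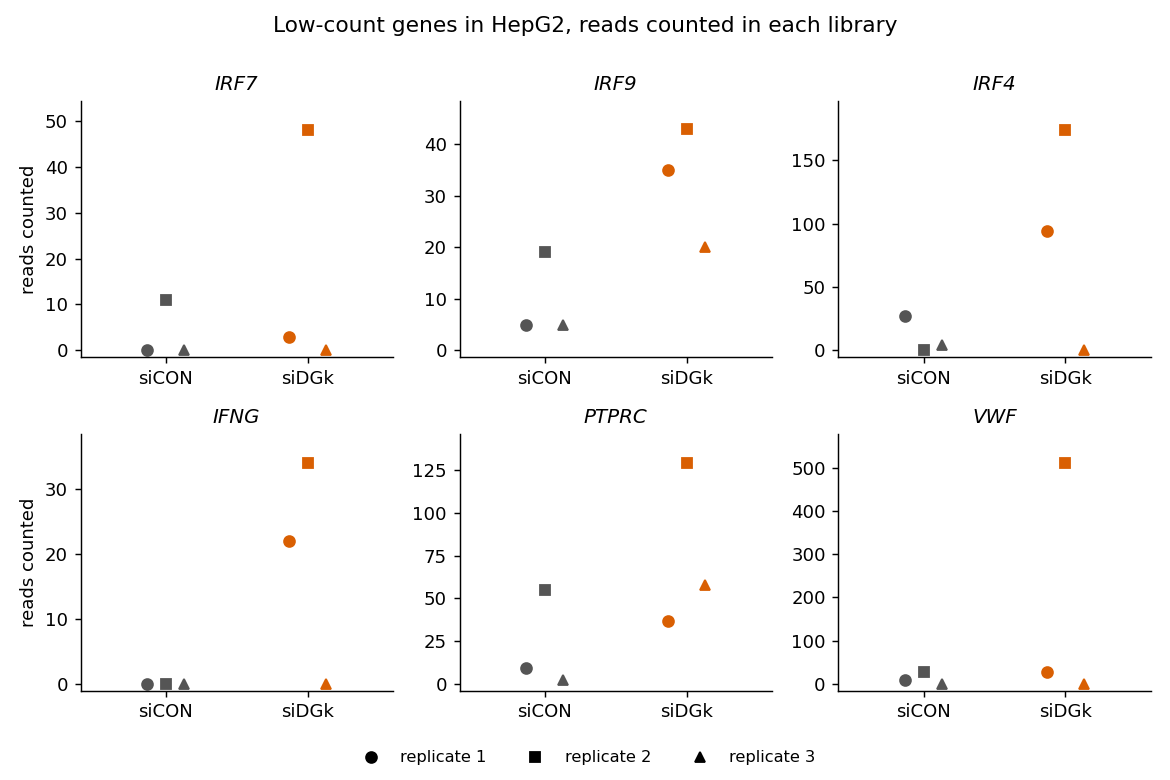
Reads counted in each library (vertical axes, starting at 0) for IRF7, IRF9, IRF4, IFNG, PTPRC and VWF; grey points are siCON, orange points siDGk, and shapes give the replicate. In siDGk replicate 2 (orange square) the counts were 48 for IRF7, 174 for IRF4 and 510 for VWF, the highest of the 6 libraries.

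IRF1 and IRF2 were first described as an activator and a repressor of the same elements. IRF1 (ENSG00000125347.13, chr5:132440440-132508719, minus strand) was at 13.6, 15.0 and 20.0 CPM in the siCON libraries and at 13.6, 15.3 and 6.26 CPM in the siDGk libraries. The groups overlapped, with siDGk replicates 1 and 2 close to siCON replicates 1 and 2, and siDGk replicate 3 the lowest of all. Its log2 fold change of −0.47 (standard error 0.30, 95% interval −1.09 to 0.15, adjusted p = 0.319 by edgeR) shrank to −0.17 without siDGk replicate 3 and −0.29 without siCON replicate 3, and grew to −0.71 without siDGk replicate 2. A share of 22.9% of its exonic bases is shared with genes on the opposite strand, mostly IRF1-AS1 (C5orf56 in the count table, with 6, 30 and 0 counts in siCON and 32, 23 and 0 counts in siDGk), and these counts ignore strand. IRF2 (ENSG00000168310.10, chr4:184385702-184474558, minus strand) was at 34.7, 23.4 and 28.2 CPM in the siCON libraries and at 29.4, 28.6 and 32.7 CPM in the siDGk libraries. All siDGk values fell within the siCON range, and the log2 fold change was 0.071 (95% interval −0.30 to 0.44), or −0.061 without siCON replicate 2. The log2 ratio of IRF1 CPM to IRF2 CPM was −1.35, −0.64 and −0.50 in siCON and −1.11, −0.91 and −2.38 in siDGk replicates 1, 2 and 3. The mean log2 ratio in siDGk cells differed from that in siCON cells by −0.64 (−0.18 without siDGk replicate 3), with a two-sided exact permutation p of 0.3, where the smallest p that 3 against 3 libraries can give is 0.1.

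The members also differed in level. On a scale of CPM per kilobase of the MANE Select transcript, the siCON mean level was highest for IRF3 at 35.9, then JAK1 at 16.2, IRF2 at 12.7, TYK2 at 11.3, STAT2 at 5.83, IRF1 at 4.56, IRF9 at 0.360 and IRF7 at 0.102. On this scale the siCON levels of IRF3 (31.1 to 38.6) lay above those of every other member. Those of JAK1 (13.9 to 18.4) and IRF2 (10.4 to 15.4) overlapped, as did those of IRF2 and TYK2 (10.5 to 11.9), of STAT2 (4.79 to 6.93) and IRF1 (3.83 to 5.63), and of IRF9 and IRF7. Per kilobase of all annotated exons, TYK2 (5.65) came before IRF2 (4.28), and the order of the others was the same.

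Promoters were read for the sequence elements that these factors bind. RefSeq promoters (GRCh38.p14, 300 bases from 250 before to 50 after a start) matched 5 of the 8 genes, in 7 windows; IRF2, IRF3 and IRF7 are missing from the set of promoters used here. Of 3 motifs searched on both strands, the interferon-stimulated response element core GAAANNGAAA is held by 3.57% of all 35116 windows, the IRF element GAANNGAAA by 7.66% and the STAT-bound gamma-activated site TTCNNNGAA by 7.66%; the first pair differ by 1 A and may share bases in a longer repeat. Matches were found in the windows of IRF1 and IRF9, and the stretches that hold them are shown with the matches in capitals.
IRF1, chr5:132490885-132490937, minus strand: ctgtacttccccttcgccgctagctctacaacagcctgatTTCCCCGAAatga
IRF9, chr14:24161189-24161241, plus strand: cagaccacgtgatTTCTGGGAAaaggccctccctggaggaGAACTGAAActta
Starts are those of RefSeq, which differ from the Gencode coordinates given above, so the match of IRF1 lies inside its Gencode span and that of the IRF element crosses the Gencode start of IRF9. The capitals in IRF1 are a gamma-activated site match 124 bases before the RefSeq start. Those in IRF9 are a gamma-activated site match 63 bases before the start and an IRF element match 36 bases before it. The windows of JAK1, STAT2 and TYK2 held no match. Among promoter windows of the ISGF3 target list, 31 of 52 (59.6%) held the response element core, and among those of the IRF1 target list 13 of 24 (54.2%). Of the 7 windows of the members, 0 held this core. Neither IRF1 nor IRF9 was called in siDGk cells, and binding was not measured.

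The rest of the pathway was read from lists of 139 other genes, of which 104 were tested. In edgeR's test 14 of the 104 were called, 10 higher and 4 lower, against 14.1% of all genes, and their median log2 fold change was 0.038. Without siDGk replicate 1 the count was 9, and with a threshold of 1 on the log2 fold change it was 3. Receptors and signal transducers held no call with all 6 libraries: 0 of 6 interferon receptor genes, 0 of 8 other JAKs and STATs and 0 of 6 tested other IRF-family genes were called by edgeR or by DESeq2. At an unadjusted p under 0.05, both tools had 2, 0 and 1 of these. IFNAR1, a chain of the type I receptor, was at 45.3, 40.9 and 47.3 CPM in the siCON libraries and at 52.6, 50.7 and 64.1 CPM in the siDGk libraries. These groups did not overlap, yet the adjusted p was 0.107 by edgeR, with a log2 fold change of 0.33. IFNLR1, a chain of the type III receptor, was at 7.21, 16.7 and 15.3 CPM in the siCON libraries and at 8.43, 7.20 and 7.55 CPM in the siDGk libraries. Its groups overlapped through siCON replicate 1; the log2 fold change was −0.76 (adjusted p = 0.103 by edgeR), and −1.05 without that library, where the gene was called lower. IRF2BPL, an IRF2-binding protein, passed the adjusted p alone (0.0132 by edgeR), at a log2 fold change of 0.46, and was called without siCON replicate 3 or siDGk replicate 2. IRF4 was called higher without siDGk replicate 3, the siDGk library with no count of it.

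Among genes that activate IRF3 and IRF7, 1 of 13 was called, against 14.1% of all genes. IKBKE, a kinase of IRF3 and IRF7, was at 5.61, 8.47 and 9.44 CPM in the siCON libraries and at 12.0, 14.2 and 15.8 CPM in the siDGk libraries. It rose by 0.85 ± 0.28 (standard error) on the log2 scale, with an adjusted p of 0.0382 by edgeR, and all siDGk libraries lay above all siCON libraries. The call was lost in 5 of the 6 fits without 1 library, where the fold change stayed between 0.65 and 0.99. The related kinase gene TBK1 had means of 34.1 ± 6.83 CPM for siCON and 36.8 ± 6.68 CPM for siDGk (SD, n = 3). IRAK1, a kinase of the MYD88 pathway, passed the adjusted p (9.71e-05 by edgeR) at a log2 fold change of 0.48, just under the threshold, and was called at 0.50 without siCON replicate 1.

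Among 13 brakes on JAK-STAT signaling, 2 were called, both higher, against 14.1% of all genes called. The median log2 fold change of the 13 was −0.0028. SOCS2, a suppressor of cytokine signaling, was at 6.62, 7.78 and 8.01 CPM in the siCON libraries and at 17.7, 12.7 and 14.4 CPM in the siDGk libraries. PIAS3, an inhibitor of STAT3, was at 13.3, 7.99 and 5.82 CPM in the siCON libraries and at 16.4, 21.5 and 14.0 CPM in the siDGk libraries. The groups lay apart for each, with log2 fold changes of 1.00 for SOCS2 and 0.92 for PIAS3. The call of PIAS3 was lost in 4 of the 6 fits without 1 library, and that of SOCS2 without siDGk replicate 1. SOCS1 and USP18 were called only in other fits, lower in siDGk cells, and are named for this after their values were seen. SOCS1 was at 11.9, 12.7 and 11.2 CPM in the siCON libraries and at 12.1, 2.34 and 2.94 CPM in the siDGk libraries, and USP18 at 16.0, 9.80 and 12.5 against 6.75, 7.63 and 8.97 CPM. SOCS1 was not called (adjusted p = 0.128 by edgeR), but was called without siDGk replicate 1, with no count filter, and with the replicate block. USP18 was not called either (adjusted p = 0.0874 by edgeR), except without siCON replicate 2.

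**Figure D4:**
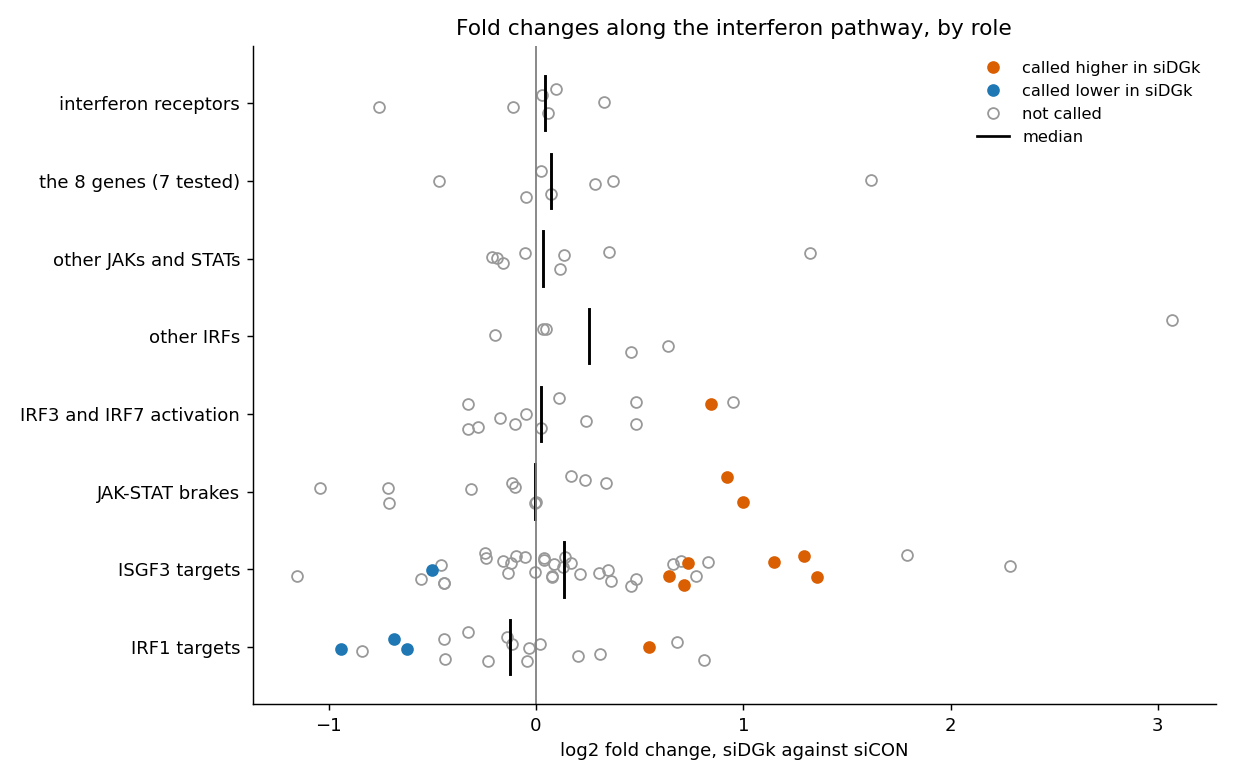
Log2 fold changes (horizontal axis, siDGk against siCON) of the tested genes of each list; filled points were called higher (orange) or lower (blue) in siDGk cells, open points were not called, black lines are medians, and vertical scatter within a list carries no value. The 8 genes, the receptors and the other signal transducers have only open points; 7 of the 40 ISGF3 targets and 4 of the 18 IRF1 targets were called, against 14.1% of all genes, and the lists were not tested against each other.

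Calls among targets of the pathway went in both directions, as did those among all genes tested (7.42% higher and 6.68% lower). Of 44 ISGF3 targets, 40 were tested, and 6 rose and 1 fell, against 14.1% of all genes called. The median log2 fold change of the 40 was 0.14. OAS1, an activator of RNase L, was at 56.2, 59.2 and 52.0 CPM in the siCON libraries and at 138, 138 and 135 CPM in the siDGk libraries. It rose by 1.29 ± 0.10 (standard error) on the log2 scale. ISG20, an exonuclease, was at 19.1, 15.2 and 11.6 CPM in the siCON libraries and at 29.3, 35.5 and 37.6 CPM in the siDGk libraries. The calls of OAS1 and ISG20 held in each of the 15 other fits. ISG15, a ubiquitin-like modifier, rose by 0.71 on the log2 scale, but by 0.44 without siDGk replicate 2, where it was not called. The others that rose were IFITM1, PML and DDX58, the gene of the sensor RIG-I; these lost their calls in 4, 5 and 10 of the other fits, and DDX58 was called neither by DESeq2 nor with library sizes recomputed after the filter. BST2, an inhibitor of virus release, fell with a log2 fold change of −0.50, at the threshold, and lost its call in 4 fits. Named after its values were seen, OAS2, a relative of OAS1, was at 0.267, 1.33 and 0.763 CPM in the siCON libraries and at 2.86, 6.96 and 1.84 CPM in the siDGk libraries, where replicate 2 was the highest. These groups did not overlap, and DESeq2 called the gene (adjusted p = 0.0172), whereas edgeR did so (adjusted p = 0.0547 with all libraries) only without siCON replicate 2 or siDGk replicate 3. SP100, a nuclear body protein, was called higher without siDGk replicate 3. IFITM3, the target with the highest mean CPM of the list, was not called, with means of 243 ± 19.3 CPM for siCON and 222 ± 6.14 CPM for siDGk (SD, n = 3), although every siDGk library was below the siCON libraries.

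Of 26 IRF1 targets, 18 were tested, and 1 rose and 3 fell, against 14.1% of all genes called. The median log2 fold change of the 18 was −0.13. ICAM1, an adhesion molecule, was at 219, 188 and 173 CPM in the siCON libraries and at 93.6, 114 and 94.2 CPM in the siDGk libraries, a log2 fold change of −0.94 ± 0.11 (standard error). CASP4, an inflammatory caspase, and TAPBP, a chaperone of MHC class I loading, had log2 fold changes of −0.68 and −0.62. Each of the 3 genes was lower in every siDGk library than in any siCON library, and the calls held in each other fit. WARS, a tRNA synthetase induced by interferon, rose by 0.55 on the log2 scale, a call that did not hold in 2 fits. B2M, the light chain of MHC class I, was not called, with means of 525 ± 36.0 CPM for siCON and 512 ± 11.4 CPM for siDGk (SD, n = 3). APOL1, an apolipoprotein, passed the adjusted p alone (0.00992 by edgeR), lower by 0.33 on the log2 scale, and every siDGk library lay below the siCON libraries. GBP2, a guanylate-binding protein, and NLRC5, an activator of MHC class I genes named after its values were seen, were called lower without siDGk replicate 2.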

How the data were processed

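The deposited values are whole counts per gene. Per their methods, the authors discarded reads from tRNA, rRNA, adapters or spike-ins, mapped the rest to GRCh38 with Gencode 27 in STAR 2.6.1, dropped low-complexity alignments (DUST above 4) and ran featureCounts 1.6.5 with default parameters and a minimum quality of 10. The submitters' processing notes also name Bowtie 1.1.2. By default featureCounts ignores strand and drops multi-mapping reads and reads spanning more than 1 gene. RNA selection, library kit and strandedness are not settled in the sources used here.

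The counts were analysed in R 4.3.3 with edgeR 4.0.16: filterByExpr with a minimum count of 10, TMM with library sizes taken before the filter, a quasi-likelihood fit (robust, with condition as its sole term), and Benjamini-Hochberg adjustment over all genes tested. Standard errors are |log2 fold change| over √F; 95% intervals use the moderated degrees of freedom. Counts of replicates differed beyond counting error (reduced chi-square of 10.9 to 27.2), so each library was counted once. Coordinates, exon overlaps and lengths came from Gencode 44 on GRCh38, and promoters from RefSeq.

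The members and gene lists were chosen with earlier results of these data known. Genes named are DGUOK, the 8 members, the marker lists, and, per list, called genes and up to 6 others with the highest mean CPM; not every such gene is given. Some genes sharing exonic bases with a member are given beside it, and genes outside the rule are marked in the text as named after their values were seen. The rule for genes resembling a called member named none, since no member was called. Alternatives were DESeq2 1.42.0 (fold changes shrunken or not), upper-quartile and RLE scaling, mitochondrially encoded genes left out, no count filter, genes above a mean CPM of 10, a block for replicate number, calls by adjusted p alone or with a fold change threshold of 1, and leaving out single libraries. Library sizes recomputed after the filter were added as an alternative after seeing the data: both versions had been run, and that with library sizes from before the filter was kept as the one matching an earlier analysis of these counts. Scripts were tested on simulated counts.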

Additional observations from a re-analysis of the deposited data

How the results depend on the processing

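The count of calls among the 8 genes was 0 under every one of the 17 alternatives, including DESeq2 and replicate number as a block. The log2 fold change threshold of 1 could give no other count here, because it only removes calls of the main fit. Across all genes, the calls numbered 2041, between 1728 and 1947 with 1 library left out, 2077 with the replicate block and 819 with a log2 fold change threshold of 1, which by construction keeps fewer. Among the other pathway genes the 14 calls became 15 with the block, 9 to 12 with 1 library left out, 3 at the threshold of 1 and 13 with library sizes recomputed after the filter, an alternative chosen after seeing the data that also gave 2032 calls across all genes. Same-numbered siCON and siDGk libraries did not deviate together (correlations over genes of 0.024, 0.017 and −0.0022), so the numbers were not treated as pairs. With 1 library left out, the log2 fold change of IRF2 ran from −0.061 to 0.23, that of STAT2 from −0.20 to 0.16 and that of TYK2 from −0.24 to 0.13, each changing sign; the cause was not tested. IRF1, IRF3, IRF9 and JAK1 kept their direction in every alternative that gave them a value, and DGUOK stayed called, between −2.73 and −2.26. IRF9 had no value at a mean CPM above 10, and IRF7 had one only without a count filter. The counts of IRF7 and IRF9 limit what can be detected for them, and TMM-scaled CPM are relative to the other genes of a library.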
